A study of Drosophila melanogaster with 2 samples.

Results

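The 10 genes described here encode the pore-forming subunits of voltage-gated ion channels: the sodium channel gene para, the potassium channel genes Sh, Shab, Shal, Shaw, slo, eag and sei, and the calcium channel genes cac and Ca-alpha1D. They were taken by gene name from a deposited expression table of 15906 features, and each of the 10 had a feature of its own. The RNA came from whole bodies of adult male Drosophila melanogaster aged 15 days. Males of the genotype da-Gal4/UAS-miR305, which overexpress the microRNA miR-305 from a transgene, gave 1 library (miR-305 males), and males of the genotype da-Gal4/+ gave the other (control males). Both carry the da-Gal4 driver, which is active in nearly all tissues, and no source used here gives the number of flies per library or says whether the genetic background was otherwise the same. The study's title frames the comparison as a search for messenger RNAs regulated by a microRNA that affects ageing.

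Voltage-gated channels open when the membrane potential changes and let chiefly a single kind of ion through. Sodium channels carry the upstroke of the action potential, potassium channels end it and set how often a neuron fires, and calcium channels couple the electrical signal to transmitter release in nerve terminals and to contraction in muscle. In Drosophila many of these genes were found through mutants that shake, are paralysed at high temperature or have seizures. Their transcripts are long and have many alternative forms.

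Each group had 1 library, so no difference given here has a replicate check, no test between the groups exists, and the order of genes with similar levels cannot be set against a spread. Levels are FPKM (fragments per kilobase of transcript, scaled to each library), which are per length and can be compared between genes. Sequencing depth is unknown. In whole flies, fewer cells of a type and less RNA per cell cannot be told apart. The mir-305 stem-loop feature had 546 FPKM in miR-305 males, against a listed 0 in control males. The FPKM values of all features summed to 1176985 in miR-305 males and to 967511 in control males. Tissue markers were those of whole males: the testis gene Mst87F had 383 FPKM in miR-305 and 491 FPKM in control males, the seminal fluid genes SP and Acp95EF were abundant in both, and the yolk protein gene Yp1 of females had 0.23 FPKM in miR-305 and 0.50 FPKM in control males.

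Of the 10 channel genes, 9 had a lower FPKM in miR-305 males, and para alone was higher. Lower too were 53.6% of features with a mean of at least 1 FPKM. Of such protein-coding genes with a longest transcript over 4000 nt, 70.2% were lower. Added together, the 10 genes had 34.4 FPKM in miR-305 males and 41.8 FPKM in control males, a 1.22-fold lower sum. The separate differences were small: from 1.73-fold lower for Sh to 1.14-fold higher for para. None of the 10 reached 2-fold in either direction.

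The plot of levels by library sets the 10 genes side by side in the order sodium, potassium, calcium. All 10 were lowly to moderately expressed in whole males, between 0.995 and 7.72 FPKM in miR-305 males and between 1.14 and 8.40 FPKM in control males. The 4 most abundant were slo, Ca-alpha1D, Shab and sei, in this order in both libraries. The least abundant, eag, stood below all but 1.07% of expressed protein-coding genes in miR-305 males and all but 1.32% in control males. The most abundant, slo, stood above 35.6% of them in miR-305 males and above 36.8% in control males, so that all 10 genes lay below the median level.

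**Figure D1:**
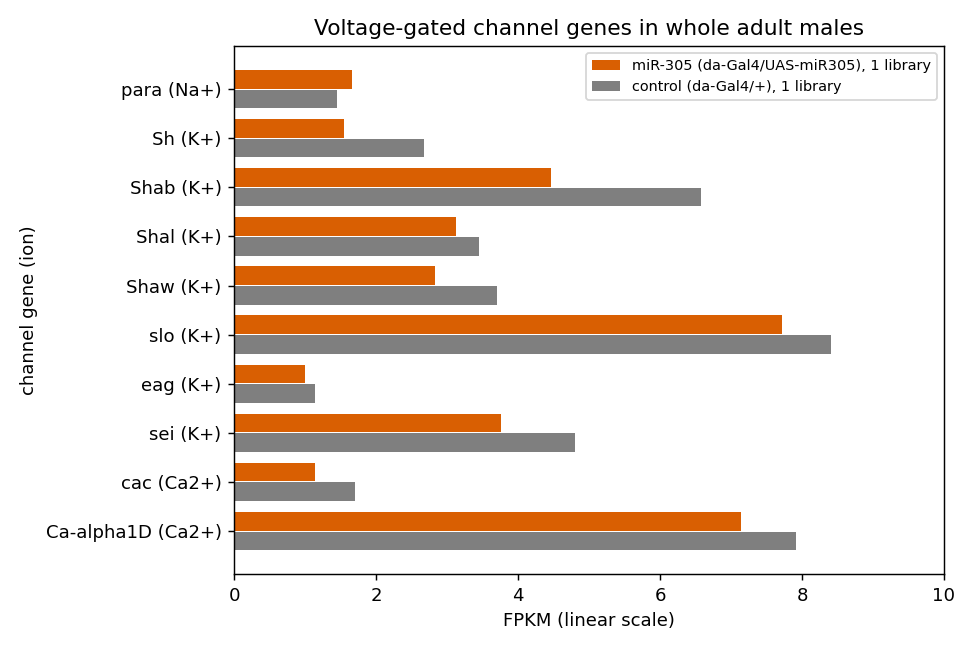
FPKM (horizontal axis, linear from 0) of the 10 channel genes, with 1 bar for the miR-305 library above 1 bar for the control library, and no error bars because each group had 1 library. The miR-305 bar is the shorter of the pair for every gene except para, with the widest gap for Shab (4.46 FPKM in miR-305 and 6.58 FPKM in control males).

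The sodium channel gene para (FBgn0285944; dm6, chromosome X, 16455027 to 16533096, minus strand) encodes the fly's neuronal voltage-gated sodium channel, whose loss of function at high temperature paralyses the animal. It had 1.66 FPKM in miR-305 males and 1.45 FPKM in control males, and was thus the only one of the 10 that was higher in miR-305 males. On the log2(FPKM + 1) scale, which is used for all log2 ratios below and understates differences of low genes, its ratio of miR-305 over control was 0.12. Its ratio was negative (-0.05) with the FPKM sums made equal. It is also the longest of the 10, with a longest annotated transcript of 15578 nt, 60 annotated transcripts and a 3′ UTR of up to 8761 nt. Among the 10, para ranked 7th in miR-305 males and 9th in control males.

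The potassium channel genes of the Shaker type were all lower, Sh and Shab by the most. Sh (FBgn0003380; chromosome X, 17924307 to 18063247, minus strand) encodes the fast, transient potassium channel whose mutants shake their legs under ether and sleep little. It had 1.54 FPKM in miR-305 males and 2.67 FPKM in control males, which is 1.73-fold lower and the lowest ratio among the 10 (log2 ratio -0.53). Shab (FBgn0262593; chromosome 3L, 2895017 to 2959579, plus strand) encodes the main delayed rectifier, which repolarises neurons and muscle. It had 4.46 FPKM in miR-305 and 6.58 FPKM in control males, 1.48-fold lower (log2 ratio -0.47), and its difference in level, -2.12 FPKM, was the largest of the 10. Of protein-coding genes with transcripts over 4000 nt, 2.92% had a log2 ratio as low as that of Sh and 4.83% one as low as that of Shab.

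The other Shaker-type genes were nearer to equal. Shaw (FBgn0003386; chromosome 2L, 3718185 to 3729145, plus strand), whose channel opens with little dependence on voltage and helps to set the resting potential, had 2.83 FPKM in miR-305 males and 3.70 FPKM in control males, 1.31-fold lower (log2 ratio -0.30). Shal (FBgn0005564; chromosome 3L, 19566851 to 19584568, minus strand), which carries a transient current in the cell bodies and dendrites of neurons, had 3.12 FPKM in miR-305 and 3.45 FPKM in control males, 1.10-fold lower (log2 ratio -0.11). Shal therefore stood above Shaw in miR-305 males and below it in control males. The 4 Shaker-type genes summed to 11.95 FPKM in miR-305 males against 16.4 FPKM in control males, 1.37-fold lower.

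The gene slo (FBgn0003429; chromosome 3R, 24662491 to 24711595, plus strand) encodes the large-conductance potassium channel that is opened by calcium together with voltage and is present in neurons and muscle. It had 7.72 FPKM in miR-305 males and 8.40 FPKM in control males, 1.09-fold lower, which is the smallest fold among the 9 lower genes. Its 23 annotated transcripts were the second most after para.

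The genes eag and sei encode channels of the KCNH family. The eag gene (FBgn0000535; chromosome X, 14955477 to 15009989, plus strand), whose mutants also shake under ether, had 0.995 FPKM in miR-305 males and 1.14 FPKM in control males (1.14-fold lower, log2 ratio -0.10). It was the lowest of the 10 genes in both libraries, and its mean of 1.07 FPKM lay just above the minimum mean of 1 FPKM that features had to reach here. The sei gene (FBgn0003353; chromosome 2R, 24047411 to 24053035, plus strand), the fly counterpart of the human ERG channel and a gene whose mutants have heat-induced seizures, had 3.76 FPKM in miR-305 and 4.80 FPKM in control males (1.28-fold lower, log2 ratio -0.28). The exons of sei share 359 of 3278 nt with gammaSnap1 and 119 nt with ppk29, both on the opposite strand. No source used here says whether counting used strand, so reads from these stretches cannot be assigned with certainty. With the deposited scaling, gammaSnap1 was higher (18.3 FPKM in miR-305 and 16.8 FPKM in control males) and ppk29 lower (0.45 FPKM in miR-305 and 0.77 FPKM in control males). The part of these overlaps in the value of sei was not tested.

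Both calcium channel genes were lower, cac by the larger ratio. The presynaptic calcium channel gene cac (FBgn0263111; chromosome X, 11931280 to 11985087, minus strand), which triggers transmitter release and is named for its effect on courtship song, had 1.14 FPKM in miR-305 males and 1.71 FPKM in control males. This is 1.5-fold lower, with a log2 ratio of -0.34. The gene for the L-type channel of muscle and neurons, Ca-alpha1D (FBgn0001991; chromosome 2L, 16165831 to 16190540, plus strand), had 7.15 FPKM in miR-305 and 7.91 FPKM in control males (1.11-fold lower, log2 ratio -0.13). An antisense RNA, CR43806, shares 248 nt of the 10481 exonic nt of Ca-alpha1D and had 18.0 FPKM in miR-305 males and 28.0 FPKM in control males. Its part in the value of Ca-alpha1D was not tested.

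Ratios between channel genes within a library do not depend on how the libraries were scaled. There were 0.93 FPKM of Sh for each FPKM of para in miR-305 males and 1.84 in control males, a 1.98-fold lower proportion. The proportion of cac to para was 0.68 in miR-305 males and 1.18 in control males. Between the calcium channel genes, the proportion of cac to Ca-alpha1D was 0.16 in miR-305 males and 0.22 in control males. The genes of the KCNH family kept a more similar proportion, with 3.78 FPKM of sei per FPKM of eag in miR-305 males and 4.22 in control males. The listed proportions differed unequally between the libraries, and they do not show which gene of a pair differed. Sh and para had the lowest and the highest ratio of miR-305 over control among the channel genes. Their proportion therefore had to differ the most of any pair, and para is also part of the proportion with cac. With no replicates and unknown depth, these unequal differences cannot be set against counting error.

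On the log2(FPKM + 1) scale none of the 10 genes differed by 1.5-fold or more, and the direction of 9 of them was shared by most long genes. Below the lower quartile of genes with transcripts over 4000 nt lay 5 of the 10, and 1 lay above the upper one. All 10 passed the minimum mean of 1 FPKM, as did 11936 features in all. A log2 ratio below 0 was found for 9 of the 10 genes, against 53.6% of the 11936 features and against 70.2% of 1574 protein-coding genes with a longest transcript over 4000 nt. The median log2 ratio of the 10 was -0.21, with quartiles of -0.33 and -0.11. The median was -0.03 over all features, -0.10 over the genes longer than 4000 nt, and -0.12 over the 974 of these with a mean of 1 to 10 FPKM, the range that holds the 10 genes. Of the 10, 0 were at least 2-fold lower and 0 at least 2-fold higher, against 1.74% and 2.36% of all features. At 1.5-fold, 0 were lower and 0 higher, against 5.97% and 6% of all features. Of the genes longer than 4000 nt, 1.78% were at least 1.5-fold lower and 0.57% at least 1.5-fold higher. When FPKM ratios were taken without adding 1, Sh and cac were at least 1.5-fold lower (2 of 10), against 8.88% of all features and 6.04% of those longer than 4000 nt.

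Set against the median of the long genes, some of the 10 lay near it and others below it. The log2 ratios of slo, Shal and Ca-alpha1D relative to that median were -0.01, -0.01 and -0.03, and that of eag was equal to it to 2 decimals. The relative ratios of sei and Shaw were -0.19 and -0.20, and 19.6% and 18.2% of long genes had a ratio as low. For cac the relative ratio was -0.24 and 12.9% of long genes were as low, for Shab it was -0.37 and for Sh -0.43. Only para lay above the median, by 0.22, and 87.0% of long genes had a ratio as low as that of para or lower.

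**Figure D2:**
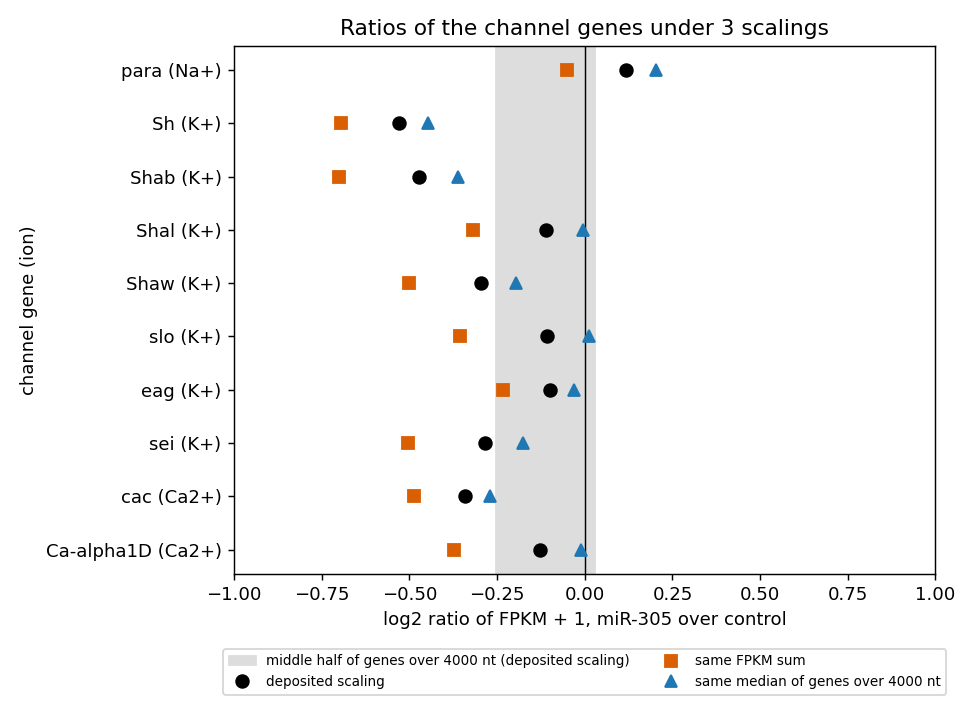
Log2 ratio of FPKM + 1, miR-305 over control (horizontal axis), of each channel gene with the deposited scaling, with both libraries scaled to the same FPKM sum, and with both scaled to the same median of protein-coding genes over 4000 nt. The grey band spans the quartiles of those long genes with the deposited scaling (-0.25 to 0.03) and is to be read against the black points only, of which Sh, Shab, cac, Shaw and sei lie left of it and para right of it.

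The scaling between the libraries moved the number of lower genes between 8 and 10. With the same FPKM sum in both libraries, all 10 had a log2 ratio below 0, with a median of -0.43, but so had 81.6% of all features, whose median was then -0.27. With the same median over long genes, 8 of 10 lay below 0, against 37.6% of all features, whose median was then 0.094, and 47.2% of the long genes. There slo was at 0.01, Shal at -0.01, Ca-alpha1D at -0.01 and eag at -0.03, while Sh was at -0.45, Shab at -0.36 and cac at -0.27. Scaling also moved the long genes, whose lower and upper quartiles were -0.47 and -0.21 with the same sum, and -0.14 and 0.15 with the same median over long genes. Under each of these scalings and the deposited one, 5 of the 10 (Sh, Shab, cac, Shaw and sei) lay below the lower quartile of the long genes scaled the same way, and para above the upper one. A common factor moves the channel genes and the long genes nearly alike, so these positions could hardly change and are no separate check. The margin was narrow for cac with the same sum, at -0.486 against a quartile of -0.475. The count of genes at least 1.5-fold lower was 2 of 10 with the same sum, against 16.3% of all features, and 1 of 10 with a pseudocount of 0.1 instead of 1, against 8.48%. The factor applied to the miR-305 values was 0.82 for the same sum and 1.10 for the same median over long genes.

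Across the table genes with long transcripts had lower ratios, while the 10 showed no such order among themselves. The median log2 ratio of protein-coding genes was 0.01 for transcripts of 1000 to 2000 nt, -0.01 for those of 2000 to 4000 nt, -0.09 for those of 4000 to 8000 nt and -0.15 for the 286 genes over 8000 nt. Of the channel genes 1 (sei, 3197 nt) had a longest transcript of 2000 to 4000 nt, 3 (Shal, Shaw and Shab) lay between 4000 and 8000 nt, and 6 were longer. Within the 10, the log2 ratio had a Spearman rho of 0.10 with the length of the longest transcript, 0.09 with the longest 3′ UTR and -0.08 with the mean FPKM (n = 10 genes from the same 2 libraries, a description only). The longest 2 of the 10, para and Sh (12181 nt), had the highest and the lowest ratio. The part of transcript length in the lower values was not tested.

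**Figure D3:**
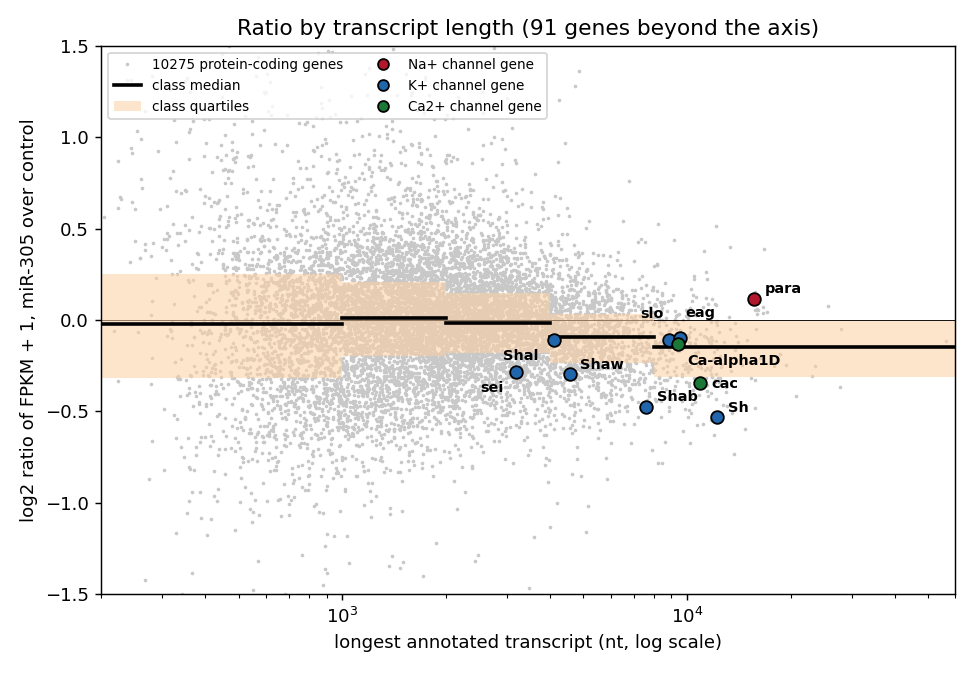
Log2 ratio of FPKM + 1, miR-305 over control (vertical axis), against the longest annotated transcript in nt (log axis) for 10275 protein-coding genes, of which 91 lie beyond the axis. Black lines and shading give the median and quartiles of 5 length classes, which lie lower above 4000 nt; para lies above the shading of its class, and Sh, Shab, cac, Shaw and sei lie below theirs.

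The 10 genes were spread over the genome. On the X chromosome lay 4 of them (para, Sh, eag and cac), with log2 ratios from -0.53 to 0.12, and the 6 on autosomes ranged from -0.47 to -0.11. Long genes had nearly the same median on the X (-0.09) and on the autosomes (-0.10). The annotated spans were between 5625 nt for sei and 138941 nt for Sh. Genes nested in the introns of channel genes, with no exonic base in common, did not share one direction. CG6867, inside Sh on the opposite strand, had 6.46 FPKM in miR-305 males and 4.21 FPKM in control males, while CG9970, inside Shab on the opposite strand, had 19.2 FPKM in miR-305 and 23.2 FPKM in control males. Also lower were CG32846 at Shab (6.8 FPKM in miR-305 and 8.8 FPKM in control males) and Cnx14D at para (1.81 FPKM in miR-305 and 1.94 FPKM in control males). The others had a mean below 1 FPKM.

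Other genes of the same currents were read from lists of channel families, auxiliary subunits and regulators. Of 29 such genes, 20 had a feature of their own with a mean of at least 1 FPKM, 5 (Teh1, Teh4, Shawl, Elk and stol, listed as CG4587) lay below that minimum, and 4 shared a feature with another gene. Of the 20, 11 had a log2 ratio below 0, against 53.6% of all features, and the median was -0.04, close to that of all features. That median pools unlike lists. Without the leak, pacemaker and inward rectifier list described below, 8 of 10 lay below 0, with a median of -0.33. This split was not planned, and the list left out is one of mostly higher genes, so the lower median follows from the choice. With equal sums, 19 of the 20 had a ratio below 0, the exception being Ork1, against 81.6% of all features.

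Expressed auxiliary subunits and regulators of the potassium and calcium channels were lower or near equal with the deposited scaling. Slob, described below, was slightly higher. Hk, the beta subunit that binds Sh, had 2.12 FPKM in miR-305 males and 4.36 FPKM in control males, 2.06-fold lower by FPKM, with a log2 ratio of -0.78. It was the only 1 of these 20 genes (5%) that was at least 1.5-fold lower on the log2 scale, against 5.97% of all features. In contrast, qvr, a membrane-anchored regulator of Sh that is needed for sleep, was near equal (13.72 FPKM in miR-305 and 13.75 FPKM in control males). The calcium channel beta subunit Ca-beta had 2.17 FPKM in miR-305 and 3.24 FPKM in control males, the alpha2delta subunit stj, which helps to place cac at synapses, had 3.52 FPKM in miR-305 and 4.42 FPKM in control males, and the T-type calcium channel Ca-alpha1T had 2.64 FPKM in miR-305 and 4.04 FPKM in control males. All 5 expressed calcium channel genes, cac and Ca-alpha1D included, had a ratio below 0, with a median of -0.34. The share below 0 was 53.6% of all features and 70.2% of protein-coding genes over 4000 nt. The sodium channel homologue NaCP60E had 4.29 FPKM in miR-305 males and 5.95 FPKM in control males, in contrast to para. A feature that joins the para subunit gene tipE with CG18675 had 13.7 FPKM in miR-305 and 14.0 FPKM in control males, and one that joins the related Teh2 and Teh3 had 3.28 FPKM in miR-305 and 5.69 FPKM in control males.

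Among the other potassium channels, SK, a small-conductance channel opened by calcium, had 0.78 FPKM in miR-305 males and 1.48 FPKM in control males (log2 ratio -0.47). KCNQ, a slowly opening channel, was higher with the deposited scaling, though not with equal sums, at 10.8 FPKM in miR-305 and 9.76 FPKM in control males (log2 ratio 0.13). Slob, which binds slo, had 7.54 FPKM in miR-305 and 7.01 FPKM in control males.

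A further list held potassium leak channels, inward rectifiers, the pacemaker channel Ih, and the sodium leak channel na with its partners unc79 and unc80. Of its 10 expressed genes, 7 had a ratio above 0, against 46.4% of all features, and the median was 0.11, or -0.10 with equal sums. The leak channel gene Ork1 had 7.05 FPKM in miR-305 males and 3.11 FPKM in control males, 2.26-fold higher by FPKM (log2 ratio 0.97), the log2 ratio farthest from 0 among the related genes. The inward rectifiers Irk1 (28.5 FPKM in miR-305 and 24.0 FPKM in control males), Irk2 (70.3 FPKM in miR-305 and 61.6 FPKM in control males) and Irk3 (43.7 FPKM in miR-305 and 37.4 FPKM in control males) were also higher in miR-305 males with the deposited scaling, though not with equal sums. Lower in miR-305 males were Ih, which opens on hyperpolarisation (13.5 FPKM in miR-305 and 17.0 FPKM in control males), na (2.53 FPKM in miR-305 and 3.28 FPKM in control males) and the potassium leak channel Task6 (1.23 FPKM in miR-305 and 1.37 FPKM in control males).

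**Figure D4:**
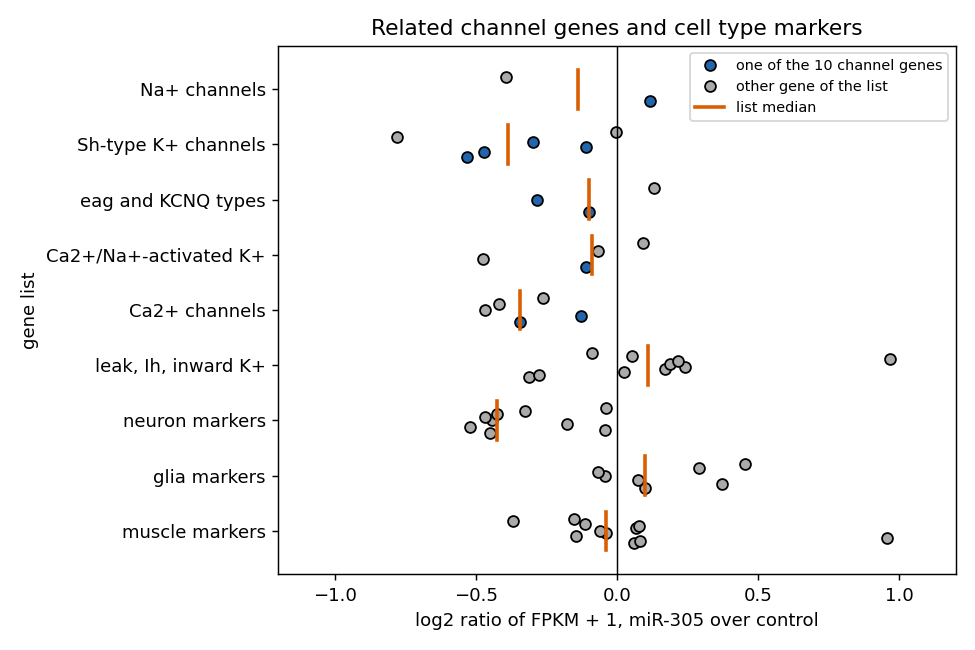
Log2 ratio of FPKM + 1, miR-305 over control (horizontal axis), of expressed genes in 6 lists of channel genes and 3 lists of cell type markers; each point is 1 gene, filled blue for the 10 channel genes and grey for others, and the line is the list median. With the deposited scaling, the neuron markers (median -0.42) lie on the same side as the Shaker-type and calcium channel genes, and the glia markers (median 0.10) and the list of leak, pacemaker and inward rectifier channels (median 0.11) on the other.

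General markers of neurons were also lower. Of 12 neuron markers 9 had a feature of their own, and all 9 had a ratio below 0, with a median of -0.42. Below 0 were 53.6% of all features and 70.2% of protein-coding genes over 4000 nt. All 9 but nSyb (3570 nt) had a longest transcript over 4000 nt, while the longest among the glia markers was 3782 nt (moody). The part of transcript length in the contrast of neuron and glia markers was not tested. The FPKM of the 9 neuron markers summed to 86.6 in miR-305 males and 105.6 in control males. The synaptic vesicle gene nSyb had 38.7 FPKM in miR-305 and 39.9 FPKM in control males, the release regulator cpx had 23.4 FPKM in miR-305 and 32.3 FPKM in control males, and no expressed marker was listed at 0. Of 7 glia markers 5 lay above 0, with a median of 0.10 and sums of 440 FPKM in miR-305 and 358 FPKM in control males, led by Gs2 (289 FPKM in miR-305 and 210 FPKM in control males) and Eaat1 (53.6 FPKM in miR-305 and 55.2 FPKM in control males). Of 11 muscle markers 6 lay below 0, with a median of -0.04 and sums of 2088 FPKM in miR-305 and 2082 FPKM in control males, led by wupA (407 FPKM in miR-305 and 419 FPKM in control males) and Mlc2 (379 FPKM in miR-305 and 358 FPKM in control males). Photoreceptor markers had a median of -0.28 (5 of 6 below 0), with ninaE at 2685 FPKM in miR-305 and 2206 FPKM in control males and trp at 98.6 FPKM in miR-305 and 117 FPKM in control males. After the sums were made equal, the medians were -0.54 for the neuron, -0.11 for the glia, -0.32 for the muscle and -0.56 for the photoreceptor markers. The part of the number of neurons, or of the RNA they hold, in the lower channel values was not tested.

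Among the marker lists, that of the accessory gland had the largest FPKM sum. Its 5 expressed genes summed to 38349 FPKM in miR-305 males and 20699.7 FPKM in control males (median log2 ratio 0.87), with SP at 21688 FPKM in miR-305 and 11863 FPKM in control males and Acp95EF at 13230 FPKM in miR-305 and 6893 FPKM in control males. Testis markers had a median of -0.37, with 7 of 8 below 0, against 53.6% of all features. Mst84Da had 469 FPKM in miR-305 and 932 FPKM in control males. Of 3 expressed fat body markers 2 lay above 0 (median 0.20, and -0.08 with equal sums), with Lsp2 at 514 FPKM in miR-305 and 159 FPKM in control males and FASN1 at 369 FPKM in miR-305 and 320 FPKM in control males. Where FPKM are scaled to the total reads of a library, transcripts that take a larger share of the reads lower the values of the rest. Whether the deposited values were scaled in this way is not known here. FPKM are also per length, so a sum of FPKM is not a share of reads. The longest transcripts of SP and Acp95EF are short, at 223 and 243 nt. The part of a changed share of reads in the channel values was not tested. Scaling to the same sum multiplied every miR-305 value by 0.82, so all 10 moved further down, as any expressed feature had to. This is therefore no check of that part.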

How the data were processed

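Total RNA from whole males was made into NEBNext Ultra Directional libraries and read as 51-bp single ends on a HiSeq 1000, per the labels' protocols. The authors deposited 1 FPKM value per library and feature. FastQC 0.11.5, TopHat2 2.0.13 and Cufflinks 2.2.1 are named with build dm6, per the submitters' processing notes; no source used here gives the strand setting. For genes with 1 transcript, at most 33.3% (miR-305) and 35.7% (control) of low values fell within 0.1 of whole multiples of a common step, where an even spread gives 20%, so reads could not be recovered and depth is unknown.

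Coordinates (1-based), transcripts and lengths come from Ensembl 115, which uses the same assembly and matched 14867 features (93.5%) by name and position. It may differ from the annotation the authors used. Log2 ratios compare FPKM + 1 in miR-305 with FPKM + 1 in control, for features with a mean of at least 1 FPKM. Of the features, 634 join several symbols and entered no list. Named were the 10 channel genes, related genes past 1.5-fold or with the 2 largest ratios of a list, any other gene of the related lists, and the 2 most abundant markers of each list; Yp1 and the overlapping and nested genes were chosen after their values were seen. The channel genes and lists were chosen with earlier results of these data known. The calculations used Python 3.11.15, numpy 2.4.6, pandas 2.3.3, scipy 1.17.1 and matplotlib 3.10.9 and were checked on simulated data. Alternatives were pseudocounts of 0.1 and 5, 4 scalings, no filter and a mean of at least 10 FPKM. No pseudocount, and long genes with a mean of 1 to 10 FPKM, were added after seeing the data. The count of related genes without the leak, pacemaker and inward rectifier list was not planned either.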

Additional observations from a re-analysis of the deposited data

How the results depend on the processing

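With 1 library per group, no replicate could be left out. No paired analysis was possible because each group has a single library. A movement of up to 0.1 on the log2 scale was taken as none. Of 70 log2 ratios of channel genes under 7 alternatives, 45 moved by no more than that and 2 changed sign: para with the same FPKM sum (-0.05) and slo with the same median over long genes (0.01). No channel gene reached 2-fold under any setting. At least 1.5-fold lower were 1 of 10 with a pseudocount of 0.1 (8.48% of all features), 2 with none (8.88%) and 2 with the same sum (16.3%), against 0 with the deposited scaling and a pseudocount of 1 (5.97%). With the same sum, the median log2 ratio was -0.43 for the channel genes, -0.27 for all features, -0.33 for transcripts over 4000 nt and -0.24 for the related genes, of which 19 lay below 0. With the same median over long genes these medians were -0.10, 0.094, 0.017 and 0.073. With a mean of at least 10 FPKM the related genes left were qvr, KCNQ, Ih, Irk1, Irk2 and Irk3. Their median was 0.16, with 2 below 0. No channel gene is left under that minimum, so that none has a value there. The causes of the movements under scaling lie in the factors themselves, 0.82 for the same sum and 1.10 for long genes. Without the added 1, Sh was at -0.79 and cac at -0.59. Counting error cannot be given, since depth is unknown.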
